A study of Mus musculus with 18 samples.

Results

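The inter-alpha inhibitors and alpha-2 macroglobulins described here are 9 genes chosen by symbol: Itih1, Itih2, Itih3, Itih4 and Ambp of the first family, and A2m, Pzp, Mug1 and Mug2 of the second. They are 9 of the 21018 genes listed in at least 1 of the 3 gene count tables of this study of mouse liver, and all 9 are listed in each table. The mice were 12-week-old male C57/B6J animals, of which 3 received 20 µg/Kg of IL-1β intraperitoneally (mice ILB.9579, ILB.9582 and ILB.9583) and 3 received saline (mice UNT.9574, UNT.9575 and UNT.9576), and livers were perfused with PBS and taken after 4 hours. RNA of each mouse was made into libraries with 3 kits, which gave 18 libraries: Pico is a stranded total RNA kit, V4 an unstranded poly(A) kit and TruSeq a stranded poly(A) kit. IL-1β is an inflammatory cytokine, and the liver answers it by changing which plasma proteins it makes. The question was how the 9 genes changed with IL-1β within each kit, and whether the kits gave the same change.

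Inter-alpha inhibitors are plasma proteins made in the liver in which heavy chains are joined through a chondroitin sulfate chain to bikunin, a small inhibitor of serine proteases. The heavy chains can be passed on to hyaluronan, which stabilises the matrix of inflamed tissue and of the oocyte's cumulus. Alpha-2 macroglobulins are large plasma proteins that trap proteases in a cage after the protease cuts a bait region, and most carry an internal thioester that then binds the protease. In rats A2m is a classical acute-phase protein, while in mice the product of Pzp is an abundant plasma macroglobulin and the murinoglobulins of Mug1 and Mug2 work as single chains.

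Gene positions are those of GENCODE on mm9, the build of the tables. On chromosome 14 Itih4 (ENSMUSG00000021922, chr14:31699662-31715167, plus strand) lies next to Itih3 (ENSMUSG00000006522, chr14:31721759-31736946, minus strand) and Itih1 (ENSMUSG00000006529, chr14:31742366-31756475, minus strand). Itih2 (ENSMUSG00000037254) is at chr2:10016218-10053023 on the minus strand, and Ambp (ENSMUSG00000028356), which encodes both alpha-1-microglobulin and bikunin, is at chr4:62804309-62815833 on the minus strand. On chromosome 6 A2m (ENSMUSG00000030111, chr6:121586191-121629255), Mug1 (ENSMUSG00000059908, chr6:121788559-121839075) and Mug2 (ENSMUSG00000030131, chr6:121956816-122035985) lie in a row on the plus strand, and Pzp (ENSMUSG00000030359, chr6:128433585-128476738) lies apart on the minus strand. All are protein-coding, and no other annotated gene overlaps any of them.

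The coding sequences show how the genes differ at the sites that give the proteins their function. The heavy chains that are joined to bikunin share a short coding motif for the bond to chondroitin sulfate, printed here with 24 bases on either side and with the motif in capitals (GENCODE transcripts on mm9):
Itih1: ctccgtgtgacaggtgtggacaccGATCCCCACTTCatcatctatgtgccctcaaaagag
Itih2: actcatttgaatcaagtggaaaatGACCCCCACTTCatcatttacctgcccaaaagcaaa
Itih3: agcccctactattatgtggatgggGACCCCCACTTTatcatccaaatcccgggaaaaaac
The motif was found once in each of these 3 genes and not in Itih4. In Ambp the precursor is cut between alpha-1-microglobulin and bikunin, and the capitals mark the bases that code for the residues before the cut:
Ambp: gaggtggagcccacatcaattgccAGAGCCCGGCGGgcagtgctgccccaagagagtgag
The macroglobulins share the coding motif of the thioester, in capitals:
A2m: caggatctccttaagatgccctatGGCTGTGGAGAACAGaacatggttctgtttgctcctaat
Pzp: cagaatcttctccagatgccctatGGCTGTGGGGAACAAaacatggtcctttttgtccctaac
Mug1: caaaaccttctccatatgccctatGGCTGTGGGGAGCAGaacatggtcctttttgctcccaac
Mug2: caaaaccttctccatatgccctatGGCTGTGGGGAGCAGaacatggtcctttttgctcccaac
The thioester stretches of Mug1 and Mug2 were the same in 63 of 63 bases, while A2m and Pzp shared 52 of 63.

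Over the whole coding sequence Mug1 and Mug2 were 95.1% identical, against 63.2% to 69.2% between the other pairs of macroglobulins and 55.8% to 63.6% between heavy chains. Of stretches of 125 bases, the read length of TruSeq, 2.14% of Mug1 and 2.19% of Mug2 occur in the other gene, and of stretches of 150 bases, the read length of Pico and V4, 0.954% and 0.978% do. No stretch of 50 bases or more of the other 7 genes occurs in another gene. Values of Mug1 and Mug2 are therefore uncertain to the extent that the authors' counting could split such reads between them.

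Gene counts summed to 12348864 to 12858237 reads per TruSeq library, 12013453 to 12352473 per V4 library and 4024632 to 4134070 per Pico library. The 9 genes took 1.91% to 2.03% of the reads in the saline Pico libraries and 2.28% to 2.58% in the IL-1β ones, and 1.69% to 1.93% and 2.35% to 2.58% in TruSeq. In V4 the shares were 0.816% to 1.05% and 1.12% to 1.36%. The V4 library of saline mouse UNT.9576 had the lowest share of all 18 libraries. It was not low for each of these genes, since its Itih2 count (4651) was above those of the other saline V4 libraries (3732 and 4358). Its Ambp count (35860) lay between theirs (34163 and 37092). Of 8 hepatocyte markers all were listed in each kit, with a summed level of 92121 to 111063 CPM (counts scaled to the library total) in the saline TruSeq libraries and 73007 to 76463 after IL-1β. In bulk liver, fewer cells of a type and less RNA per cell cannot be told apart.

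Levels per length were compared as CPM per kb of annotated exon, within a kit. In saline TruSeq livers Pzp (1382 ± 78.4 CPM per kb, SD, n = 3) and Ambp (1285 ± 73.5) stood highest and their values overlapped. They were followed by Mug1 (929 ± 164), Itih4 (570 ± 20.6), Itih2 (339 ± 14.9), Itih3 (235 ± 10.7), Itih1 (207 ± 5.58) and Mug2 (153 ± 16.0), and among these neighbours no others overlapped. A2m was last at 0.0337 ± 0.0291 CPM per kb. After IL-1β the order in TruSeq began with Itih4 (2266 ± 192 CPM per kb), then Ambp (1686 ± 99.5) and Pzp (1646 ± 69.5), which overlapped each other. By this measure Itih4 moved from place 104 to place 36 among the 19424 genes listed in TruSeq, and Pzp from 45 to 47.

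**Figure D1:**
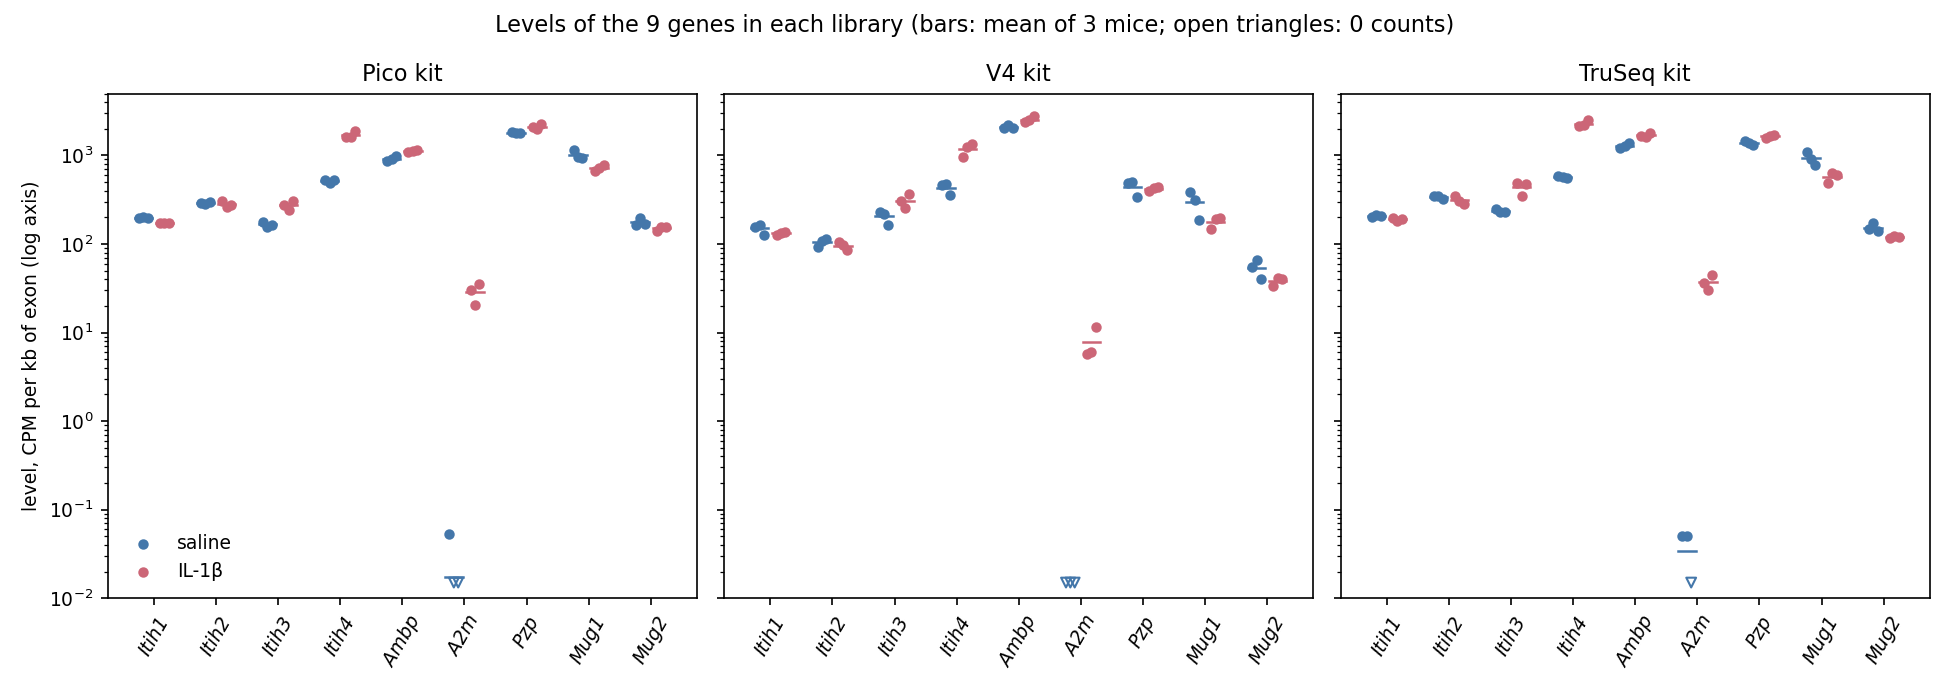
Level of each gene in each library, as CPM per kb of exon on a log axis, with 1 panel per kit, blue points for saline mice, red points for IL-1β mice and a bar at the mean of 3 mice. A2m is the gene that lies near or at 0 counts (open triangles) in saline mice and at 5.66 to 44.3 CPM per kb after IL-1β, and Itih4 rose in all 3 kits.

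The response to IL-1β was tested in each kit with limma-voom over all listed genes, and a gene was called at an adjusted p (Benjamini-Hochberg) of at most 0.05. In Pico 5 of the 9 genes were called higher, where 6.78% of all 18108 genes were, and 1 was called lower, where 10.8% were. In TruSeq 5 genes were called higher (12.3% of all 19424 genes) and 2 lower (21.8%). In V4 3 were called higher (3.6% of all 18051 genes) and 0 lower (7.41%), with 2 lower at an unadjusted p under 0.05 and 0 lower by edgeR or DESeq2. The median log2 fold change of the 9 genes was 0.25 in TruSeq, 0.22 in Pico and -0.04 in V4, and that of all genes tested was -0.17, -0.12 and -0.22. With TMM factors in place of library totals every fold change moves up by a similar amount, which for the median gene was 0.16 in TruSeq, 0.13 in Pico and 0.17 in V4. Of all called genes, the share that were higher then moved from 36.0% to 50.9% (TruSeq), 38.6% to 52.9% (Pico) and 32.7% to 49.7% (V4). Itih3, Itih4 and A2m were called higher in all 3 kits, and Mug1 was called lower in Pico and TruSeq, under both scalings.

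**Figure D2:**
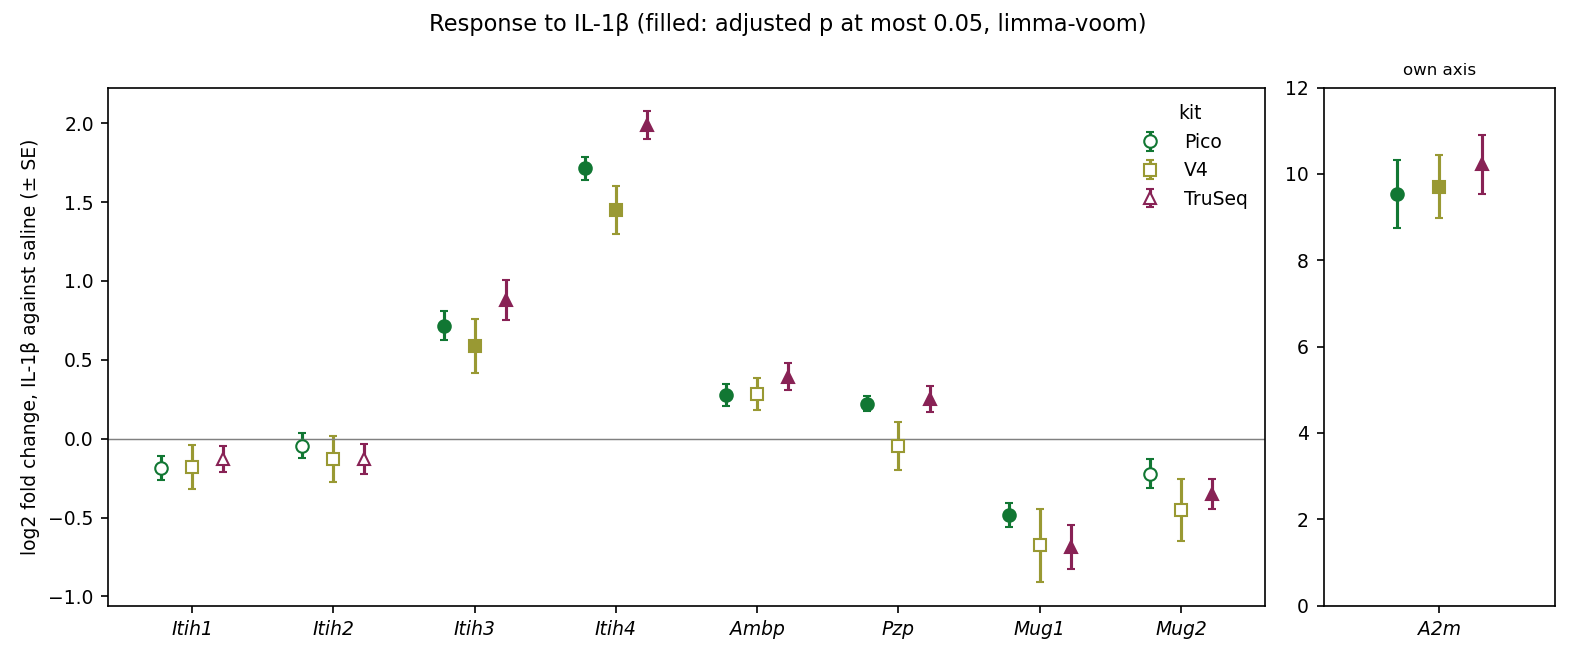
Log2 fold change of each gene, IL-1β against saline, with its standard error, for the Pico, V4 and TruSeq kits, and with filled symbols for an adjusted p of at most 0.05. A2m is on an axis of its own because its fitted values lie between 9.53 and 10.22, and these depend on the offset added to near-zero counts. Itih4 stands above the other genes at 1.45 to 1.99, and Mug1 is lowest in each kit.

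Itih4 encodes a heavy-chain relative that circulates without bikunin, and it rose in every kit. In TruSeq its counts were 24846, 24047 and 23504 in saline mice UNT.9574, UNT.9575 and UNT.9576, and 87550, 89760 and 102272 in IL-1β mice ILB.9579, ILB.9582 and ILB.9583. The Pico counts were 7179, 6702 and 7312 against 21815, 21369 and 25165, and the V4 counts 18373, 18965 and 14693 against 38734, 49533 and 53392. The lowest IL-1β library lay above the highest saline library in each kit, which held for 12.6% (Pico), 9.09% (V4) and 17.1% (TruSeq) of all genes in this direction. The log2 fold change of Itih4 was 1.99 ± 0.09 (SE) in TruSeq, 1.71 ± 0.07 in Pico and 1.45 ± 0.15 in V4, with adjusted p-values of 9.8e-07, 6.2e-11 and 0.00023 (limma-voom). The value was higher than that of 97.9% of the genes tested in TruSeq, 96.2% in Pico and 94.5% in V4.

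Itih3 encodes a heavy chain that is joined to bikunin, and it also rose in all 3 kits, by less than Itih4. Its TruSeq counts were 11368, 10559 and 10777 in saline mice and 21942, 15605 and 21423 in IL-1β mice, with mouse ILB.9582 the lowest of the treated ones. That mouse was also the lowest IL-1β mouse for Itih3 in Pico (3539, against 4047 and 4473) and in V4 (11062, against 13507 and 15883). The saline counts of V4 were 10069, 9668 and 7306 and those of Pico 2641, 2323 and 2485, so the groups did not overlap in any kit. By limma-voom the log2 fold change was 0.88 ± 0.13 (adjusted p 0.00069) in TruSeq, 0.72 ± 0.09 (4.5e-05) in Pico and 0.59 ± 0.17 (0.0498) in V4. The V4 call lay at the threshold and was lost when any 1 of the 6 mice was left out, with adjusted p-values between 0.060 and 0.197.

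Itih1 and Itih2, the genes of the other heavy chains joined to bikunin, were called in no kit. The TruSeq counts of Itih1 were 8370, 8913 and 8855 in saline mice and 8039, 7297 and 7838 in IL-1β mice, which did not overlap, and its log2 fold change was -0.13 ± 0.08 (adjusted p 0.261, limma-voom). In Pico its counts were 2613, 2701 and 2661 against 2307, 2304 and 2271, again without overlap, with a log2 fold change of -0.19 ± 0.08 (adjusted p 0.124). In V4 the Itih1 counts, 6210, 6576 and 5172 against 5052, 5253 and 5414, overlapped. Itih2 overlapped between the groups in all 3 kits, with 14791, 14701 and 13817 against 14282, 12649 and 11670 in TruSeq, and its log2 fold change was between -0.13 and -0.04. Under TMM scaling the sign of Itih2 was positive in each kit and that of Itih1 was positive in TruSeq, so neither gene has a direction that holds under both scalings in all kits.

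Ambp, which supplies bikunin, was higher in every IL-1β library than in any saline library of the same kit. Its TruSeq counts were 21695, 23009 and 24692 in saline mice and 28655, 28204 and 31478 in IL-1β mice. In Pico they were 4920, 5348 and 5711 against 6166, 6297 and 6517, and in V4 34163, 37092 and 35860 against 40881, 42346 and 46733. The log2 fold change was 0.28 ± 0.07 (adjusted p 0.011) in Pico and 0.39 ± 0.09 (0.0062) in TruSeq, which passed the test, and 0.28 ± 0.10 (0.097) in V4, which did not (limma-voom). With TMM factors the V4 value was 0.45 with an adjusted p of 0.027. The Pico call was lost without mouse UNT.9574, ILB.9582 or ILB.9583, with adjusted p-values of 0.065, 0.069 and 0.055, and in the fit of all 18 libraries (0.0714), which called the V4 difference (0.0014).

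The heavy chains did not change together, and their proportions differed between treatments. Itih4 made up 42.2% ± 0.345 (SD, n = 3) of the summed level per kb of Itih1 to Itih4 in saline TruSeq libraries and 70.7% ± 2.88 after IL-1β. Its share was 44.3% ± 0.708 and 70.0% ± 1.58 in the Pico libraries, and 48.3% ± 1.07 and 68.6% ± 4.05 in those of V4. Among the 3 heavy chains with the bikunin bond motif alone, Itih3 made up 30.1% ± 0.994 in saline and 46.3% ± 4.27 in IL-1β TruSeq libraries. The summed level of the 4 heavy-chain genes in TruSeq was 1350 ± 38.7 CPM per kb in saline mice and 3203 ± 209 after IL-1β. Ambp stood at 0.953 ± 0.0817 of that sum in saline TruSeq libraries and 0.527 ± 0.00838 after IL-1β. This proportion differed between kits, at 0.786 ± 0.0595 and 0.459 ± 0.0268 in Pico and 2.37 ± 0.298 and 1.49 ± 0.0879 in V4. Relative to Itih1 to Itih3 alone Ambp stood at 1.65 ± 0.133 and 1.81 ± 0.190 in TruSeq, and these 2 groups overlapped. In Pico the values were 1.41 ± 0.105 and 1.53 ± 0.108 and in V4 4.58 ± 0.48 and 4.78 ± 0.375, also with overlap.

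**Figure D3:**
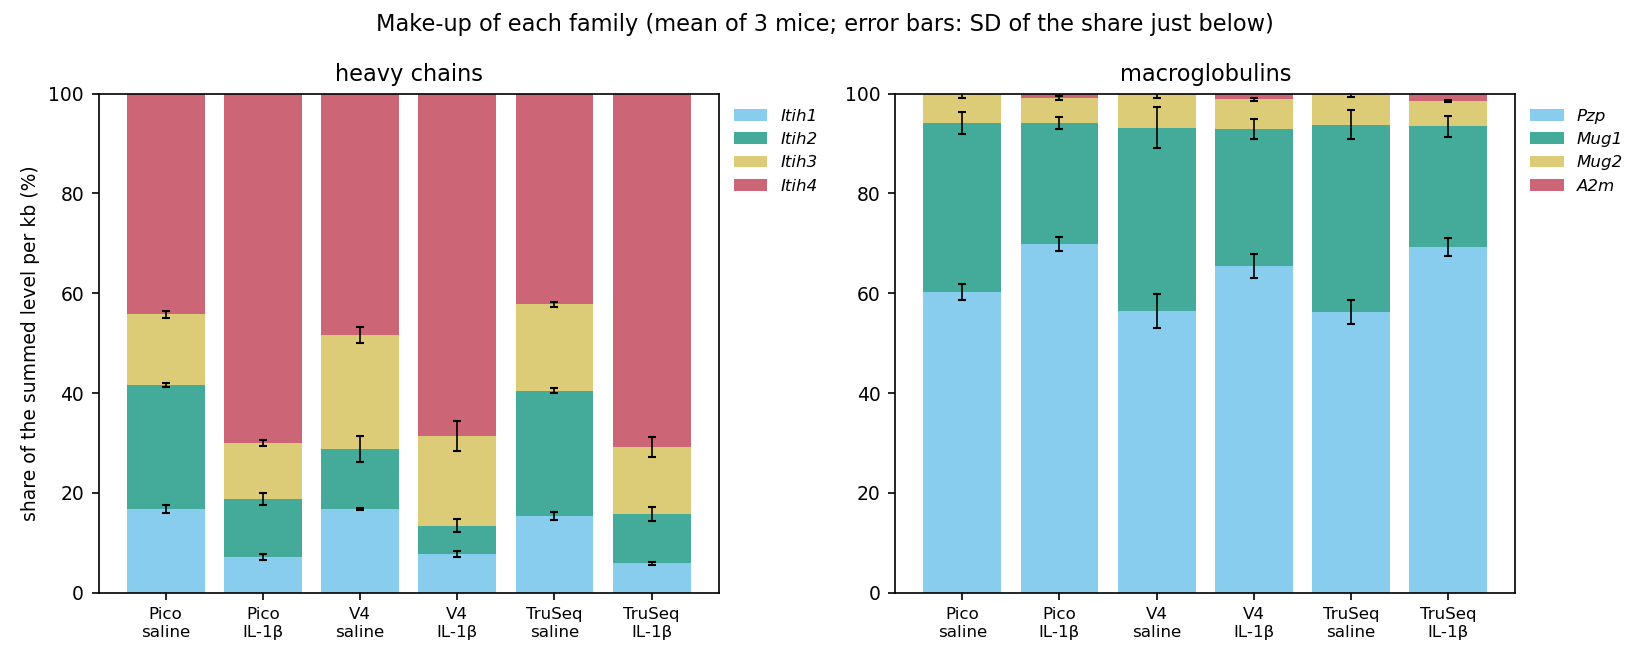
Share of each gene in the summed level per kb of the 4 heavy-chain genes (left) and of the 4 macroglobulin genes (right), by kit and treatment, as means of 3 mice with the SD of each share at its upper edge. In TruSeq the Itih4 share was 42.2% in saline mice and 70.7% after IL-1β, the Mug1 share was 37.5% and 24.1%, and A2m reached 1.56%.

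A2m had almost no reads in saline livers and rose in every IL-1β library. Its TruSeq counts were 3, 3 and 0 in saline mice and 2125, 1736 and 2564 after IL-1β. In Pico they were 1, 0 and 0 against 565, 381 and 666, and in V4 0, 0 and 0 against 322, 336 and 651. The groups were far apart in each kit, and the lowest count of the other 8 genes in any library was 1849. Relative to library totals, the summed IL-1β counts were 1642 times the single saline read in Pico (95% exact interval 294 to 64897) and 1103 times the 6 saline reads in TruSeq (507 to 3008). In V4, where all saline libraries were at 0, the mean IL-1β count was at least 145-fold higher than a floor of 3 counts per library. These intervals and the floor cover counting error only, since reads are not independent molecules. A2m was called higher in each kit, with adjusted p-values of 9.7e-06 in TruSeq, 3.7e-07 in Pico and 2.4e-05 in V4 (limma-voom). After IL-1β it remained the lowest of the 9 genes per length, at 37.0 ± 7.08 CPM per kb in TruSeq against 1646 ± 69.5 for Pzp.

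Pzp had the highest level of the macroglobulins in each kit and treatment, and it was called higher in the stranded kits. Its TruSeq counts were 86687, 83598 and 78626 in saline mice and 92359, 95017 and 100292 after IL-1β, and its Pico counts 35503, 34617 and 34455 against 39902, 37111 and 42943. The groups did not overlap in either kit. The log2 fold change was 0.25 ± 0.08 (adjusted p 0.035) in TruSeq and 0.22 ± 0.05 (0.0044) in Pico (limma-voom). In V4 the counts, 27910, 28286 and 19523 against 22940, 23985 and 25135, overlapped, and the log2 fold change was -0.04 ± 0.15 (adjusted p 0.881), with 19523 in the library of mouse UNT.9576. The TruSeq call was lost without mouse UNT.9575, UNT.9576, ILB.9579, ILB.9582 or ILB.9583, with adjusted p-values between 0.051 and 0.083, and the Pico call without mouse UNT.9575 (0.051) and in the fit of all 18 libraries (0.191).

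Mug1 fell in the stranded kits. Its TruSeq counts were 68476, 57381 and 48928 in saline mice and 29972, 38438 and 36375 after IL-1β, and its Pico counts 23125, 19502 and 19087 against 13383, 14298 and 15553. Neither pair of groups overlapped, a pattern that 27.9% of all genes showed in this direction in TruSeq and 18.6% in Pico. The log2 fold change was -0.69 ± 0.14 (adjusted p 0.0041) in TruSeq and -0.48 ± 0.07 (0.00021) in Pico (limma-voom). The Pico call was lost in 1 fit of all 18 libraries, which uses 1 estimate of the spread for all kits (adjusted p 0.167). In V4 the counts were 22716, 18748 and 11368 against 8877, 11390 and 11537, and the lowest saline library, that of mouse UNT.9576, lay among the IL-1β ones. The V4 log2 fold change was -0.68 ± 0.23 with an adjusted p of 0.090, and without mouse UNT.9576 it was -0.98 with an adjusted p of 0.0098. The fit of all 18 libraries also called it lower in V4. These were the only 2 of 13 alternative fits (limma-voom, edgeR and DESeq2) to do so. Over the 13 the V4 value ranged from -0.98 to -0.46, and the adjusted p reached 0.288.

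Mug2 was called lower in TruSeq alone, and its differences between kits were not called. Its TruSeq counts were 8381, 9960 and 8282 in saline mice and 6520, 6951 and 6732 after IL-1β, without overlap, and its log2 fold change was -0.35 ± 0.10 (adjusted p 0.019, limma-voom). With TMM factors it was -0.19 (adjusted p 0.16), so the call rests on the scaling by totals, and it was also lost with edgeR (0.206) and DESeq2 and without mouse UNT.9575 (0.053) or ILB.9579 (0.069). In Pico the counts were 3008, 3720 and 3163 against 2572, 2850 and 2886, with a log2 fold change of -0.22 ± 0.09 (adjusted p 0.115). In V4 they were 2995, 3625 and 2228 against 1849, 2255 and 2228, with a log2 fold change of -0.45 ± 0.20 (adjusted p 0.178), and of -0.65 (0.032) without mouse UNT.9576. In V4 it was also called in the fit of all 18 libraries. Only these 2 of 13 alternative fits (limma-voom, edgeR and DESeq2) called it there. Over the 13 the V4 value ranged from -0.65 to -0.28, and the adjusted p reached 0.478.

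The summed level of the macroglobulin genes overlapped between treatments in each kit, while their proportions differed. In TruSeq the sum was 2464 ± 244 CPM per kb in saline mice and 2376 ± 134 after IL-1β, in Pico 2998 ± 148 and 3013 ± 199, and in V4 792 ± 200 and 647 ± 52.8. Of the TruSeq sum Mug1 made up 37.5% ± 2.95 in saline mice and 24.1% ± 2.03 after IL-1β, and Pzp 56.3% ± 2.39 and 69.3% ± 1.79. The Mug1 share was 33.9% ± 2.19 and 24.1% ± 1.19 in the Pico libraries and 36.8% ± 4.05 and 27.5% ± 2.0 in those of V4. After IL-1β A2m made up 1.56% ± 0.282 of the TruSeq sum, 0.939% ± 0.203 of the Pico sum and 1.18% ± 0.430 of the V4 sum.

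Ratios between genes of the same library do not depend on the scaling of libraries, and 10 of them were compared in each kit with a two-sided exact permutation test, which with 3 against 3 mice cannot give a p below 0.1. Of these, 8 did not overlap between treatments in any kit, with an exact p of 0.1 (adjusted over 30 tests, 0.12). The ratios share genes, so these are not 8 separate results, and the share among pairs of other genes was not computed. Of single genes in TruSeq, 17.1% were higher and 27.9% lower without overlap. The log2 ratio of Itih4 to Itih1 was 1.57, 1.43 and 1.41 in the saline TruSeq libraries and 3.44, 3.62 and 3.71 in the IL-1β ones, a 4.35-fold shift, and the shift was 3.73-fold in Pico and 3.09-fold in V4. Itih3 was higher relative to Itih1 by 2.01-fold in TruSeq, 1.87-fold in Pico and 1.70-fold in V4, and it was lower relative to Itih4 in each kit without overlap. Mug1 relative to Pzp was -0.34, -0.54 and -0.68 on the log2 scale in saline TruSeq libraries and -1.62, -1.31 and -1.46 after IL-1β. In V4 the same ratio was -0.30, -0.59 and -0.78 against -1.37, -1.07 and -1.12, so that the library of mouse UNT.9576 did not overlap with the IL-1β ones on this measure. The ratio of Itih2 to Itih1 overlapped in all 3 kits, and that of Mug2 to Mug1 did so in Pico and V4 (exact p of 0.2 and 0.3) and not in TruSeq.

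**Figure D4:**
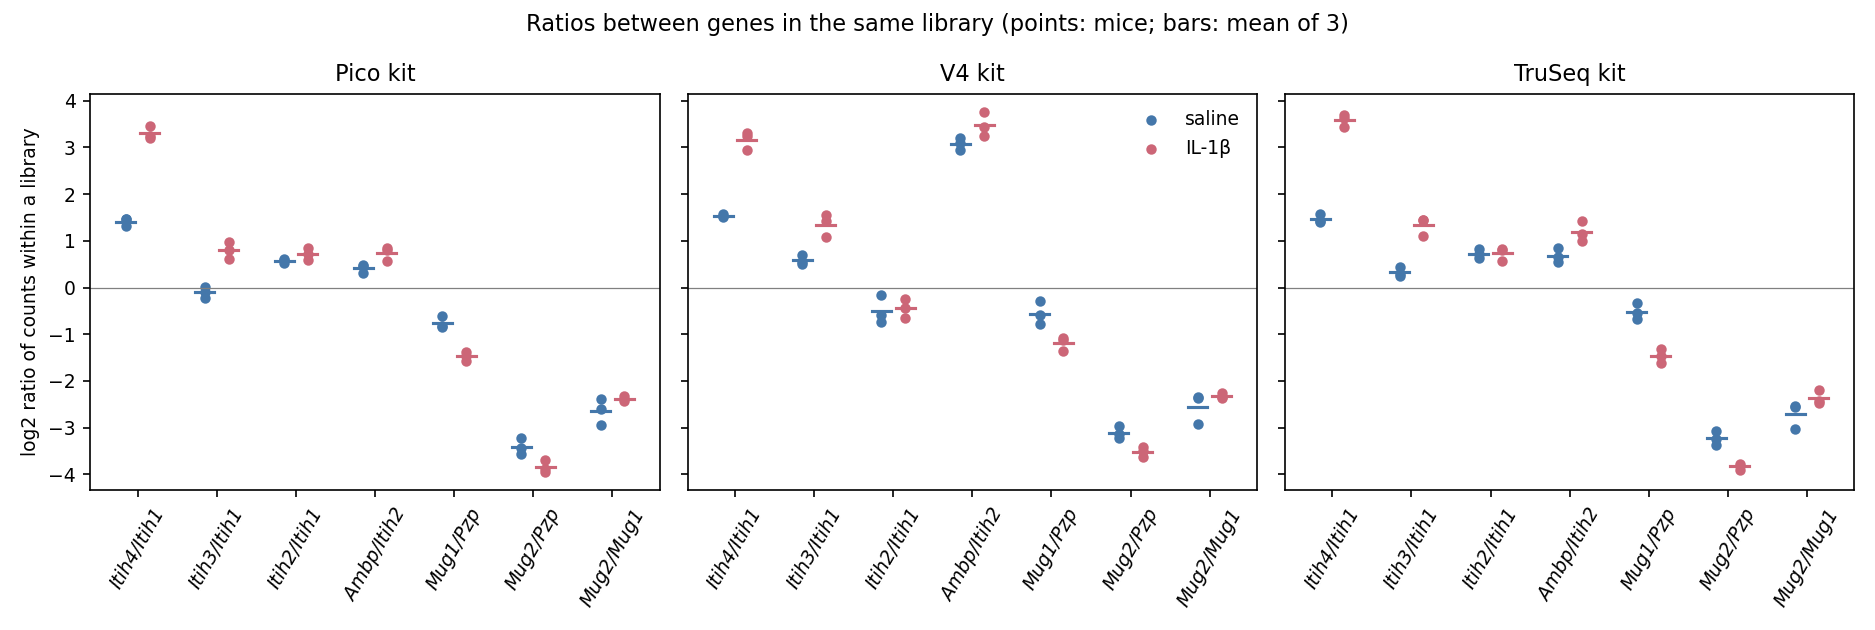
Log2 ratio of the counts of pairs of genes within each library, with 1 panel per kit, blue points for saline mice, red points for IL-1β mice and bars at the mean of 3. In TruSeq Itih4/Itih1 lies between 1.41 and 1.57 in saline mice and between 3.44 and 3.71 after IL-1β, Mug1/Pzp lies lower after IL-1β in all 3 kits without overlap, and Itih2/Itih1 overlapped in each kit.

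To ask whether the change with IL-1β depended on the kit, an interaction term was fitted for each pair of kits. By limma-voom 0 of the 9 genes were called in any pair, where 0% of all genes were called in each pair. At an unadjusted p under 0.05, 1 of the 9 passed for Pico against TruSeq, 1 for V4 against TruSeq and 0 for Pico against V4, against 5.49%, 6.36% and 5.49% of all genes. The gene was Itih4 in both cases. Its log2 fold change was smaller in V4 than in TruSeq by -0.54 ± 0.18 (unadjusted p 0.010, adjusted p 0.527) and smaller in Pico than in TruSeq by -0.28 ± 0.11 (0.024 and 0.900). With the mouse as a block the adjusted p of the latter was 0.142. None of the 9 was called by edgeR or DESeq2. Over all genes DESeq2 called 2 higher and 2 lower for Pico against TruSeq, 10 and 62 for V4 against TruSeq and 16 and 1 for Pico against V4, and edgeR 0 in each. The limma-voom count over all genes depended on mouse UNT.9576. Without that mouse 1 gene was called higher and 56 lower for V4 against TruSeq, and 39 and 0 for Pico against V4. None of the 9 was among them.

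The level measured from the same mouse's RNA also differed between kits. The tables were normalized separately, and kit, RNA input, read length and run cannot be told apart, so these differences are given without a test. Relative to TruSeq, V4 gave lower log2 CPM for Pzp (-1.81, range over 6 mice -1.98 to -1.48), Mug1 (-1.69, -2.05 to -1.52), Mug2 (-1.59, -1.84 to -1.38) and Itih2 (-1.70, -1.91 to -1.51), and for A2m in the 3 IL-1β mice (-2.32, -2.69 to -1.94). The median over 8960 genes was -0.46. Ambp, the shortest of the 9 with a transcript of 1268 bases, was instead higher in V4 by 0.65 (0.54 to 0.77). Itih1 and Itih2, whose longest transcripts have 3077 and 3122 bases, differed in this measure, with Itih1 close to the median gene at -0.50. A part of transcript length in these differences was not tested. Pico gave higher values than TruSeq for Pzp (0.37), Mug1 (0.24) and Mug2 (0.27) and lower ones for Ambp (-0.54), Itih3 (-0.58) and A2m (-0.40), where the median gene was at 0.01.

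**Figure D5:**
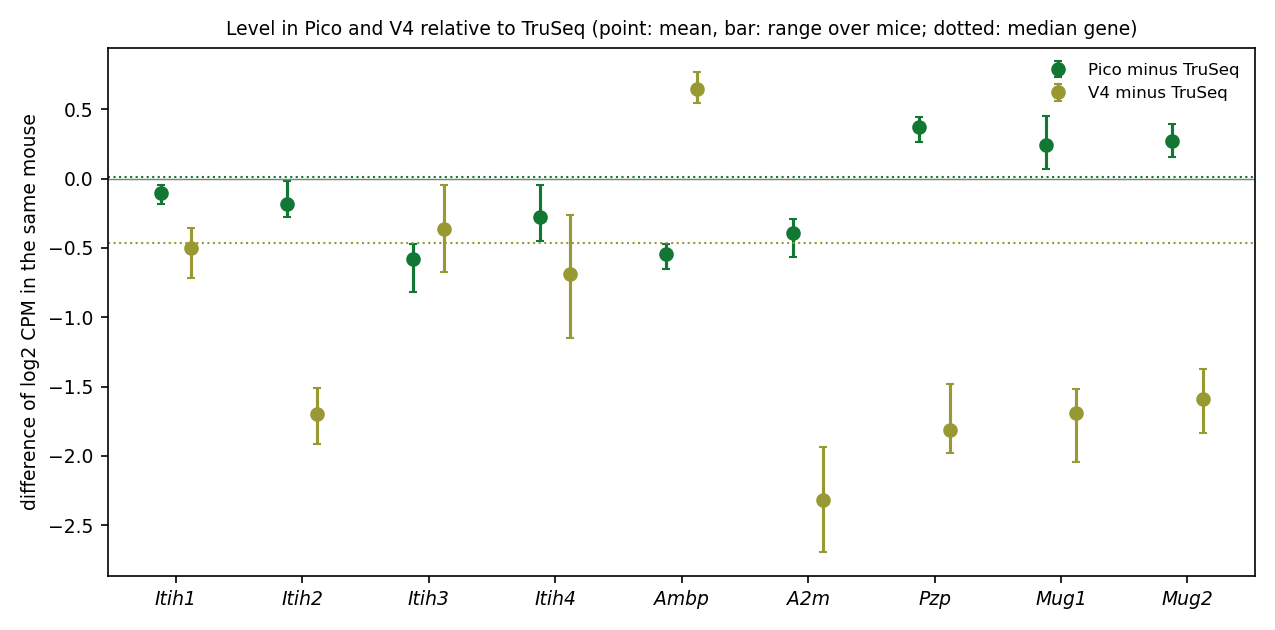
Difference of log2 CPM between kits in the same mouse, Pico minus TruSeq in green and V4 minus TruSeq in olive, with the mean as a point, the range over 6 mice as a bar (3 for A2m) and the median of 8960 genes as a dotted line. In V4 the 4 macroglobulin genes and Itih2 lie between -2.32 and -1.59, below the median gene at -0.46, and Ambp lies above at 0.65.

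Promoters were searched for motifs of transcription factors that act in the acute phase or in hepatocytes. Those from RefSeq (GRCm38.p6, the 250 bases before each start) were available for 8 of the 9 genes, and not for A2m. A STAT motif (TTCNNNGAA, which reads the same on both strands) was found in 1, that of Itih4, at -51 to -43 from the start, and it is found in 7.02% of 32851 promoters of that length. The promoter of Itih4 is printed because it holds this match, in capitals (GRCm38.p6, chr14:30886226-30886475, plus strand):
Itih4: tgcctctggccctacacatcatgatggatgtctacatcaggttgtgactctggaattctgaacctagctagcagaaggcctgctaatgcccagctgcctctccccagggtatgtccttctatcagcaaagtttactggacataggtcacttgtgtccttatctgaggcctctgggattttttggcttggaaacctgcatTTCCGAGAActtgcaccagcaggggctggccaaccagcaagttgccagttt
A C/EBP motif (TTGCNNAA, either strand) was found in 1, Itih2, at -33 to -26 on the minus strand, against 9.56% of promoters. The NF-kappaB and HNF1 motifs searched were found in 0 of the 8, against 1.41% and 0.371% of promoters. These are matches of letters in one window and not measured binding.

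Genes of the pathways around the 9 were followed as 5 lists. Their counts are to be read against the share of all genes tested that passed the same threshold. For TruSeq this share was 12.3% higher and 21.8% lower. It was 6.78% higher and 10.8% lower for Pico, and 3.6% higher and 7.41% lower for V4. Whether any list departed from these shares was not tested. Of the IL-6 receptor to STAT3 list, the signalling route to acute-phase genes in hepatocytes, 8 of 12 genes were called higher and 1 lower in TruSeq, as in Pico, and 4 and 1 in V4. Stat3, the transcription factor of the route, rose by a log2 fold change of 1.69, 1.81 and 1.68 in Pico, V4 and TruSeq. Osmr, the oncostatin M receptor, rose by 1.75, 4.08 and 1.67, and Cebpd, a transcription factor of the acute phase, by 1.76, 2.06 and 1.79. The V4 value of Osmr (SE 1.07) rests on few reads, with mean counts of 9.33 ± 11.4 (SD) in saline and 74.0 ± 27.8 in IL-1β libraries. Lifr, the receptor for leukemia inhibitory factor, was lower, at -1.24, -1.07 and -1.35.

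Of the other protease inhibitors, 8 of 37 were called higher and 10 lower in Pico, 10 and 14 in TruSeq, and 8 and 5 in V4. Serpina3n, an inhibitor of serine proteases that belongs to a family of close copies, rose by a log2 fold change of 4.03, 3.95 and 4.19 in Pico, V4 and TruSeq, from 5386 ± 609 to 95644 ± 10793 counts in TruSeq. Timp1, the inhibitor of metalloproteases, had 0, 0.333 and 1.33 mean counts in saline Pico, V4 and TruSeq libraries and 16.0, 125 and 97.7 after IL-1β. Serpind1, the heparin cofactor II gene, was lower at -1.09, -1.15 and -1.24, and Serpina1a and Serpina1b, alpha-1-antitrypsin genes that are near-identical copies and hence uncertain, at -0.34 to -0.47 and -0.32 to -0.45.

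Of the extracellular proteases, 3 of 23 were called higher and 8 lower in Pico, 4 and 11 of 24 in TruSeq, and 1 and 4 of 23 in V4. Klkb1, the plasma kallikrein gene, was lower by a log2 fold change of -0.93, -0.97 and -1.14 in Pico, V4 and TruSeq, and Bmp1, a procollagen protease, by -0.67, -0.83 and -0.60. Mmp8, the neutrophil collagenase, had 0, 0 and 1 mean counts in saline Pico, V4 and TruSeq libraries and 26.3, 34.3 and 44.0 after IL-1β. Of 8 neutrophil markers 4 were called higher in each kit, out of 7 listed in TruSeq, 6 in V4 and 4 in Pico, and their summed level in TruSeq was 1.72 to 3.00 CPM in saline mice and 34.9 to 73.9 CPM after IL-1β, with Mpo not listed in any kit, Ly6g not in Pico or V4, and Elane and Camp not in Pico. Their part in the rise of Mmp8 was not tested.

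Of the macroglobulin relatives and receptors, 3 of 11 were called higher and 2 lower in Pico, 2 and 3 of 10 in TruSeq, and 1 and 1 of 11 in V4. C3, a complement protein of the same thioester family, rose by a log2 fold change of 0.59, 0.46 and 0.83 in Pico, V4 and TruSeq. Of the hyaluronan list, 4 of 15 were called higher and 1 lower in Pico and 4 and 3 of 18 in TruSeq. In V4 0 of 18 were called by limma-voom, with 4 at an unadjusted p under 0.05 and 2 called by edgeR and 2 by DESeq2. With 0 limma-voom calls in V4, no gene of this list could be called in all 3 kits, whatever its direction.

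The genes most like each of the 9 were taken from the correlation of log2 CPM over the 18 libraries, among 8960 genes. From each value the mean of the same kit's saline libraries was first subtracted. These 18 points share 6 mice and the treatment, so the values are a description. Itih4 was closest to Hpx, the hemopexin gene (r = 0.989), Fgb, a fibrinogen chain (0.988), and Serpina3n (0.986). A2m was closest to Orm1, an alpha-1-acid glycoprotein gene (0.992), Fga, another fibrinogen chain (0.991), and Serpina3n (0.991). Itih3 was closest to C3 (0.953), Fgb (0.947) and Atxn2l (0.945), and Ambp to Ppapdc1b (0.961), Cyp2b10 (0.954) and C3 (0.953). Within the 9, Itih4 and A2m had an r of 0.976, Itih3 and Itih4 0.933, and Mug1 and Mug2 0.840.

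Mug1 was closest to Cd5l, a macrophage gene (0.957), C1s (0.954) and Cml2 (0.954), and Mug2 to Pigr (0.953), Ufsp2 (0.928) and 1500003O03Rik (0.915). The summed level of 8 Kupffer cell and macrophage markers, all listed, with 5 called lower and 1 higher in TruSeq, was 136 to 229 CPM in saline and 67.3 to 97.7 CPM in IL-1β TruSeq libraries, and its part in the fall of Mug1 was not tested. Itih1 was closest to Osbpl2 (0.918), Atg3 (0.915) and Enpp2 (0.912), and Pzp to Cops3 (0.923), Kcmf1 (0.916) and Copg (0.907). Itih2 had the weakest neighbours, 1300014I06Rik (0.826), Arrdc4 (0.814) and Hspe1 (0.809), and it had an r of 0.105 with Itih1.

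The 20 nearest listed genes around the members' positions, 2 on each side of each gene or cluster, were compared as background. By limma-voom 0 of 20 were called higher in any kit, and 0 were higher at an unadjusted p under 0.05. Of all genes tested, 6.78% in Pico, 3.6% in V4 and 12.3% in TruSeq were called higher, and a departure of the 20 from these shares was not tested. By edgeR and by DESeq2 the count of neighbours called higher was 1, M6pr in each case, so the count of 0 depends on the tool. By limma-voom 9 were called lower in at least 1 kit, of which Slc6a13 and Fkbp4 were called lower in all 3. Of all genes tested, 10.8% in Pico, 7.41% in V4 and 21.8% in TruSeq were called lower, so falls are common outside these positions too. Beside the Itih4, Itih3 and Itih1 cluster lie Tmem110 and Mustn1 on one side, at log2 fold changes in TruSeq of 0.09 and 0.32 (adjusted p 0.616 and 0.316), and Nek4 and Spcs1 on the other, at -0.58 and -0.10 (0.0065 and 0.527). Itih5, another heavy-chain gene next to Itih2, was lower in TruSeq at -0.61 (adjusted p 0.033) and not called in Pico or V4.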

How the data were processed

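RNA of 6 mouse livers was sequenced with 3 kits (18 libraries, 3 mice per group and kit). The authors aligned reads with GSNAP to mm9, removed ribosomal reads, resampled to equal depth within a kit with PORT and deposited gene counts, which are whole reads, sense only in both stranded kits and of either strand in V4. Tables were normalized separately. Replicates are separate mice. The authors' methods credit the TruSeq libraries to an earlier experiment, while their text also describes another TruSeq run of the same samples. Which run the TruSeq table holds is not given in the sources used here. The Pico libraries were made again to repeat the work, and which preparation the Pico table holds is not given in the sources used here.

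Each kit was fitted with limma-voom (limma 3.58.1, R 4.3.3) on the counts with library totals, over all listed genes, with Benjamini-Hochberg adjustment. Differences between kits used an interaction of kit and treatment. Alternatives were edgeR 4.0.16 (quasi-likelihood), DESeq2 1.42.0, TMM factors, count filters, thinning to 4024632 counts, 1 fit of all libraries, other thresholds, leaving out each mouse and the mouse as a block. Simulated data with 200 genes of known change were used to test the main limma-voom fits, within each kit and between kits. The alternatives were not simulated. Ratios used 0.5 added counts. Python 3.11.15, numpy 2.4.6, pandas 2.3.3, scipy 1.17.1, biopython 1.88 and matplotlib 3.10.9 made the summaries.

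The same mouse's RNA entered all kits, so mice pair libraries across kits. Deviations from group means were correlated over 8960 genes (mean count of 20 or more in each kit). For the same mouse the values were 0.188 to 0.427 (Pico and TruSeq), 0.133 to 0.397 (V4 and TruSeq) and 0.0597 to 0.207 (Pico and V4). For other mice they were below 0. Deviations within a group sum to 0 for each gene, so values above 0 for the same mouse force lower ones elsewhere in its group. The values below 0 are therefore no separate evidence of pairing.

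The members and lists were chosen with earlier results of these data known. Named are all members, up to 3 rises and 3 falls of each list (by TruSeq, called in all kits without overlap), the 3 genes most like each member and the nearest 2 genes on each side. Some genes that this rule names are not reported here.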

Additional observations from a re-analysis of the deposited data

How the results depend on the processing

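No call of the 9 genes changed direction. Of 351 values of their log2 fold changes under an alternative, 303 kept their direction and side of the threshold, 23 lost the call, 7 gained it and 18 turned sign, all of these for Itih1, Itih2 or Pzp where the gene was called in neither fit. With TMM factors, edgeR and DESeq2 Itih2 was 0.031, 0.034 and 0.034 in TruSeq, 0.087, 0.091 and 0.087 in Pico and 0.037, 0.038 and 0.042 in V4, Itih1 was 0.027, 0.028 and 0.027 in TruSeq, and Pzp was 0.12, 0.094 and 0.10 in V4. The ratio of Itih2 to Itih1 turned to -0.0099 in TruSeq at equal depth. Without 1 mouse Itih2 in Pico ranged from -0.11 to 0.014, Pzp in V4 from -0.23 to 0.051, and the shift of the Itih2 to Itih1 ratio from -0.044 to 0.083 in TruSeq and from -0.072 to 0.22 in V4. The cause was not tested.

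The fit of all 18 libraries, which shares 1 estimate of the spread, called 3 of the 9 genes higher and 0 lower in Pico and 2 lower in V4. It called 2 hyaluronan genes, 2 macroglobulin relatives, 11 inhibitors, 7 proteases and 4 IL-6 route genes in Pico, and 5, 5, 22, 14 and 8 in V4. The members called lower were 1 in TruSeq with TMM factors, edgeR, DESeq2 or a threshold of 0.01, and 1 in V4 at a threshold of 0.1. At 0.01, Pico gave 2 hyaluronan genes and 2 macroglobulin relatives, V4 gave 0 macroglobulin relatives, 6 inhibitors, 3 proteases and 1 IL-6 route gene, and TruSeq gave 1 macroglobulin relative and 8 proteases. At 0.1, V4 gave 2 hyaluronan genes, 6 macroglobulin relatives and 9 proteases. TMM factors gave 11 inhibitors in Pico, 1 hyaluronan gene and 1 macroglobulin relative in V4 and 3 macroglobulin relatives in TruSeq. DESeq2 gave 3 macroglobulin relatives and 11 inhibitors in Pico, 2 hyaluronan genes in V4 and 3 macroglobulin relatives in TruSeq, and edgeR 2 hyaluronan genes in V4 and 3 macroglobulin relatives in TruSeq. With at least 10 counts in 3 libraries, V4 gave 1 hyaluronan gene.

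Leaving out 1 mouse at a time, members called lower ranged from 1 to 2 in TruSeq (1 without mouse UNT.9575 or ILB.9579) and from 0 to 2 in V4 (2 without mouse UNT.9576). In Pico, hyaluronan calls ranged from 2 to 4, macroglobulin relatives from 2 to 4, inhibitors from 9 to 15 and proteases from 7 to 10. In V4 they ranged from 0 to 1, 0 to 2, 6 to 13 and 3 to 9, and IL-6 route genes from 1 to 5. In TruSeq macroglobulin relatives ranged from 2 to 5 and proteases from 9 to 13.

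With the mouse as a replicate block 0 of the 9 genes were called between any kits, and the Itih4 difference from TruSeq was -0.28 (adjusted p 0.142) for Pico and -0.54 (0.407) for V4, and that of Pico from V4 was 0.26 (0.820). Of 24 differences of the other 8 genes, 9 turned sign under an alternative and 0 were called in any fit. The summed level per kb of the 9 genes was 5325 by the longest transcript and 4860 with TMM factors against 5087 in saline Pico, 5387 and 4828 against 5100 in saline TruSeq, and 7679 and 7676 against 7265 in IL-1β TruSeq. By Spearman correlation 9 of the 27 most-like genes were shared. Removing the filter changed nothing, since every listed gene had been tested. Depth limits A2m in saline mice, where 0 to 3 reads were counted.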
